A study of Saccharomyces cerevisiae with 4 samples.

Results

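The genes described here encode enzymes of histidine biosynthesis in the budding yeast Saccharomyces cerevisiae. They are the rows for HIS1 (YER055C), HIS2 (YFR025C), HIS4 (YCL030C), HIS5 (YIL116W), HIS6 (YIL020C) and HIS7 (YBR248C), 6 of the 6301 open reading frames (ORFs) in the table, and were chosen by their systematic names without use of their values. Strain S288c, the laboratory reference strain, was used throughout, with no other allele named in the labels. The nitrogen-rich culture was in synthetic complete medium (SC), which supplies amino acids and adenine, and grew at 30°C with shaking at 160 rpm to mid log phase (OD600 of 0.4). Nitrogen-poor cells came from such cultures and spent 12 h in minimal medium (MM), which had no amino acids, no adenine and only 0.025% ammonium sulfate. The lack of amino acids, the lack of adenine, the shortage of ammonium and the later harvest therefore change together between the media and cannot be told apart. Oligo-dT primed cDNA from both media was hybridized competitively on 4 spotted arrays of ORFs, 2 that carried MM in Cy5 and 2 that carried SC in Cy5, numbered replicate 1 and 2 in each dye orientation. An equal amount of mRNA (2 µg) was reverse transcribed from each medium, so the ratios compare shares of the mRNA and not transcripts per cell.

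Histidine is built from phosphoribosyl pyrophosphate (PRPP) and ATP by a single unbranched route. The fifth step also releases AICAR, an intermediate of purine synthesis, so the pathways for histidine and adenine are linked. In yeast the histidine genes are a classic group under general amino acid control. Under this control the kinase Gcn2 senses uncharged tRNA and raises translation of the activator Gcn4. Bas1 and Pho2 (Bas2), regulators of the adenine genes, also act on some of them.

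All 6 genes were lower in MM than in SC on all 4 arrays. Values are log2 ratios of MM over SC, so that 0 is the SC level and negative values are lower levels in MM. Titles of the arrays assign the dyes to the media one way and the annotation of their channels the other way, so this direction is likely but not stated. It rests on genes known to be induced by amino acids in the medium, 8 of 8 of which had a mean below 0. It also rests on 5 other genes with a ratio of MM over SC in the text of the study, 5 of 5 with the same sign. For 4 of them the size of the mean was within 0.02 of the log2 of the stated ratio. If the direction were opposite, each sign would turn. The mean over replicates fell to -3.44 for HIS4, -2.68 for HIS7, -2.50 for HIS5, -2.28 for HIS1, -1.29 for HIS2 and -0.69 for HIS6. On the linear scale MM transcript was 9.22% of the SC level for HIS4 and 61.9% for HIS6, the extremes of the group. By limma, fitted to the 3765 genes with values on all 4 arrays, 6 of 6 genes passed an adjusted p of 0.05 and are called lower. The background of this count is 641 genes called lower, 17% of the genes tested. None of the 6 was called higher, against 622 genes or 16.5% of all genes tested. The calls rest on a variance shared across genes: an ordinary variance per gene, which has 1 degree of freedom here, called 0 of the 6 and 0 of all genes, with 5 of the 6 and 877 of all genes at an unadjusted p of at most 0.05.

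HIS1 encodes ATP phosphoribosyltransferase, the first and feedback-inhibited enzyme of the route. Its log2 ratio was -2.20 and -2.40 on the MM in Cy5 arrays (replicates 1 and 2) and -2.15 and -2.39 on the SC in Cy5 arrays. The arrays of replicate 2 were slightly lower in both orientations, and all values lay within 0.25 of each other. The mean was -2.28 ± 0.15 (SD, n = 2 replicates), a 4.87-fold lower level in MM (limma adjusted p 0.00864).

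HIS4 encodes a protein with 3 activities. It carries out the second and the third step and, as histidinol dehydrogenase, the last. Its log2 ratio was -3.67 and -3.83 on the MM in Cy5 arrays and -3.18 and -3.08 on the SC in Cy5 arrays. Every one of these values was below every value of the other 5 genes. The mean was -3.44 ± 0.02 (SD, n = 2), a 10.8-fold lower level in MM (limma adjusted p 0.00864), and single arrays spanned 8.43-fold to 14.2-fold. The small SD between replicates does not carry the spread between dye orientations, which did not overlap for HIS4, and did not for HIS2 and HIS6 either. The share of all genes without such overlap was not counted, so this is not read as a trait of these genes.

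HIS6 encodes the isomerase of the fourth step and had the smallest decrease. Its log2 ratio was -0.54 and -0.66 on the MM in Cy5 arrays and -0.74 and -0.83 on the SC in Cy5 arrays, all below 0 and all above every value of the other genes. The mean was -0.69 ± 0.08 (SD, n = 2), or 1.62-fold lower (limma adjusted p 0.0251). This call was lost without MM in Cy5 replicate 2, at a log2 ratio of -0.73 and an adjusted p of 0.0616. Across all alternatives the limma adjusted p of HIS6 ranged from 5.89e-08 to 0.214. The lowest came from the fit without the 4 runs of rows described below, found in these same data by poor agreement of replicates. With n = 2, so low a value rests on the variance shared across genes and not on the spread of HIS6 itself. The next lowest was 9.9e-04, with the 4 arrays and a replicate block, and the highest came from the fit with no moderation.

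HIS7 encodes imidazole glycerol phosphate synthase, which takes nitrogen from glutamine and releases AICAR. The arrays gave HIS7 a log2 ratio of -2.71 and -2.58 on the MM in Cy5 arrays and -2.41 and -3.02 on the SC in Cy5 arrays. The array with SC in Cy5 of replicate 2 was the lowest and lay 0.054 above HIS4 on the same array. The mean was -2.68 ± 0.17 (SD, n = 2), a 6.41-fold lower level in MM (limma adjusted p 0.00864).

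HIS5 encodes histidinol-phosphate aminotransferase, which acts near the end of the route. HIS5 was at a log2 ratio of -2.50 and -2.53 on the MM in Cy5 arrays and -2.42 and -2.55 on the SC in Cy5 arrays. This was the closest agreement between arrays among the 6 genes, with a range of 0.13. The mean was -2.50 ± 0.06 (SD, n = 2), or 5.65-fold lower (limma adjusted p 0.00864).

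HIS2 encodes histidinolphosphatase, which removes the phosphate to give histidinol for the last enzyme, His4. HIS2 was at -1.37 and -1.54 on the MM in Cy5 arrays and -1.03 and -1.23 on the SC in Cy5 arrays. The arrays with SC in Cy5 were the less negative ones, and all lay between the values of HIS1 and HIS6. The mean was -1.29 ± 0.13 (SD, n = 2), or 2.45-fold lower (limma adjusted p 0.0129).

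**Figure D1:**
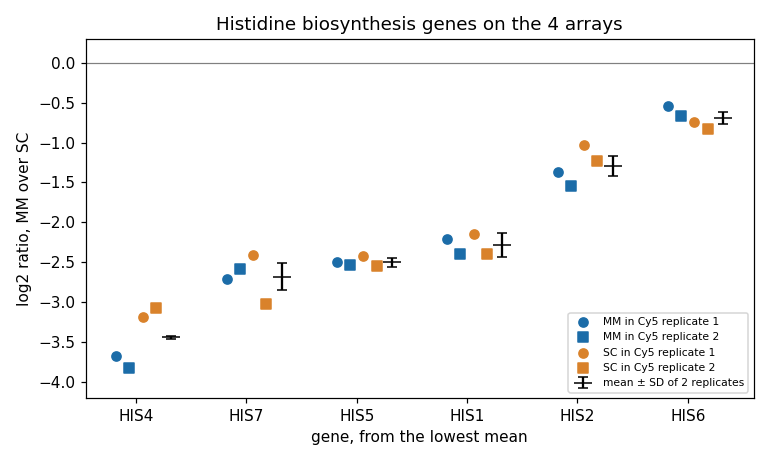
Log2 ratio of MM over SC (vertical axis) of the 6 genes, ordered from the lowest mean, with 1 point per array (colour for the dye orientation, shape for the replicate number) and the mean ± SD of 2 replicates in black. Every point lies below 0, HIS4 lies below and HIS6 above the other genes on each array, and the orientations of HIS4 are separated.

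Some neighbours in the order of the genes were told apart and others were not. HIS4 lay below HIS7 on 4 of 4 arrays with a gap of means of 0.76, more than the sum of their SDs (0.19), although the gap on single arrays went from 0.05 to 1.252. HIS7 and HIS5 were not told apart, with a gap of 0.18 against summed SDs of 0.23 and the reverse order on 1 of 4 arrays. HIS5 and HIS1 differed by 0.21, about as much as their summed SDs of 0.21, with the same order on 4 of 4 arrays. HIS1 and HIS2 were separated by 0.99 and HIS2 and HIS6 by 0.60, each beyond the summed SDs (0.28 and 0.21) and on 4 of 4 arrays. These are differences of log2 ratios and not of transcript levels.

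Read along the pathway, the size of the decrease went up and down. From HIS1 to HIS4 the log2 ratio fell by 1.15, and was lower on each of the 4 arrays. From HIS4 to HIS6 it was 2.75 higher. The enzymes of the fourth and the fifth step, HIS6 and HIS7, act one after the other, and from HIS6 to HIS7 the log2 ratio fell by 1.99. That gap was seen on all 4 arrays, with an SD of 0.09 between replicates. From HIS5 to HIS2, which follow each other near the end, the log2 ratio was 1.21 higher, and on single arrays 0.99 to 1.38 higher.

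The step between HIS7 and HIS5 belongs to HIS3 (YOR202W), imidazoleglycerol-phosphate dehydratase, which is not one of the 6 rows and was looked at after its values were known. Its row lies in 1 of 4 runs of neighbouring rows of the table in which replicates 1 and 2 do not correlate, and which replicate follows the names there is not settled. Its log2 ratio was -2.13 (MM in Cy5) and -1.92 (SC in Cy5) in replicate 1, and -2.73 and -1.02 in replicate 2. The arrays of replicate 2 differed by 1.71, against a range of 0.76 over all 4 arrays of HIS4, the widest of the 6 genes. None of the 6 genes lies in such a run. In the 29 rows centred on each of them the replicate means correlated across genes at 0.947 (HIS2) to 0.993 (HIS7), over 14 to 25 genes measured on all arrays, and at 0.414 around HIS3.

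The position among all genes shows how far the group lies out. The mean log2 ratio of HIS4 was the 4th lowest of 3765 genes, that of HIS7 the 21st, of HIS5 the 31st, of HIS1 the 42nd, of HIS2 the 157th and of HIS6 the 468th. Of the 6 genes, 4 were below -2, where 67 of the 3765 genes lay, and 5 were below -1, where 262 of them lay. The median over the 6 genes was -2.39, with -2.32 in replicate 1 and -2.47 in replicate 2, against -0.02 over all genes tested. On the single arrays this median was between -2.47 and -2.28. Among all values of an array, HIS4 ranked between the 2nd and the 11th lowest, HIS7 between the 13th and the 41st, and HIS5 between the 33rd and the 47th.

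**Figure D2:**
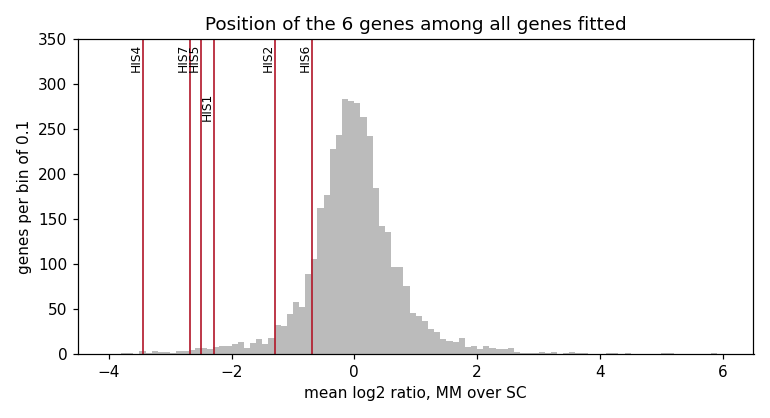
Number of genes (vertical axis, bins of 0.1) by the mean log2 ratio of MM over SC (horizontal axis) for the 3765 genes measured on every array, with a red line at each of the 6 genes. HIS4, HIS7, HIS5 and HIS1 lie below -2 in the lower tail, HIS2 at -1.29, and HIS6 at -0.69 on the shoulder of the main peak.

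The dye swap asks whether the decrease depends on which medium carried Cy5. The difference between orientations (MM in Cy5 minus SC in Cy5) was largest for HIS4, at -0.62, with means of -3.75 and -3.13. It was -0.32 for HIS2, 0.19 for HIS6, 0.07 for HIS7 and -0.03 for both HIS1 and HIS5. The median size of this difference over all genes was 0.22. With dye as a term in limma, 0 of the 6 genes were called, against 1 gene or 0.0266% of all genes tested. At an unadjusted p at or under 0.05 there was 1 of the 6, HIS4 (unadjusted limma p 0.0173, adjusted p 0.568), against 8.21% of all genes tested. The decrease of HIS4 in either orientation was several times the difference between them. Between the replicates, all 6 genes were lower in replicate 2, by 0.03 for HIS4 to 0.24 for HIS7. Of all genes 53.1% were lower in replicate 2, and 55.4% of the genes called lower were.

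**Figure D3:**
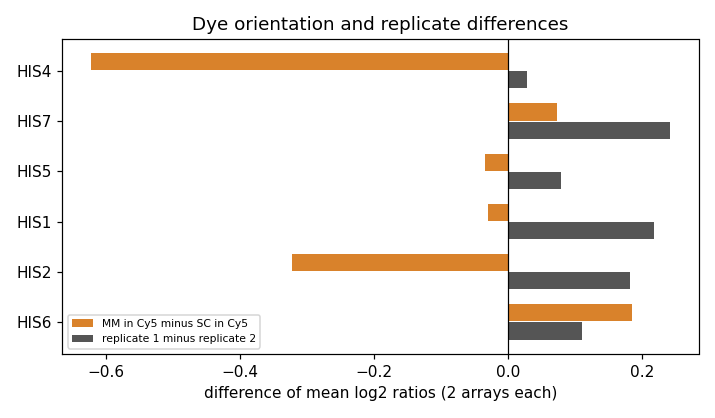
Difference of mean log2 ratios (horizontal axis, 2 arrays on each side) between the dye orientations (orange, MM in Cy5 minus SC in Cy5) and between the replicates (grey, replicate 1 minus replicate 2) for the 6 genes. HIS4 has the widest orientation difference (-0.62) and the narrowest replicate difference (0.03), while all 6 replicate differences lie above 0.

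Genes around the pathway had log2 ratios on both sides of 0, with a median nearer 0. A list of 18 genes for PRPP supply, AICAR use, charging of histidine, transport and regulation had 11 genes with values on all 4 arrays, and their median log2 ratio was -0.15. Of these 3 were called lower and 0 higher by limma, against 17% and 16.5% of all genes tested. At an unadjusted p of at most 0.05 there were 4 lower and 1 higher, against 935 lower and 882 higher of the 3765 genes tested. HTS1 (YPR033C), the histidyl-tRNA synthetase, was at -1.16 ± 0.04 (SD, n = 2, limma adjusted p 0.0127). HIP1 (YGR191W), the high-affinity histidine permease of the plasma membrane, was at -1.09 ± 0.30 (adjusted p 0.0251), and TAT1 (YBR069C), an amino acid permease, at -0.89 ± 0.24 (adjusted p 0.0275). Other transporter genes of the list had means above 0 or near it. GAP1 (YKR039W), the general amino acid permease, was at 0.72 and 0.54 and VBA1 (YMR088C), a vacuolar transporter of basic amino acids, at 1.31 and 1.85, on the arrays of replicate 1 only and inside the runs, with no test.

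Of the genes for PRPP supply, only PRS1, PRS3 and PRS4 had values on all 4 arrays, and none of them was called. PRS4 (YBL068W) and PRS3 (YHL011C), PRPP synthetases, were at -0.47 ± 0.12 and 0.01 ± 0.04 (SD, n = 2, limma adjusted p 0.0522 and 0.912). PRS4 was below 0 on all 4 arrays, with an unadjusted limma p of 0.0182. PRS1 (YKL181W) and ADE16 (YLR028C), which uses AICAR, lie inside the runs and were at -0.31 ± 0.57 and 0.12 ± 0.56. The vacuolar transporter gene VBA2 (YBR293W) was at -0.15 ± 0.14 (adjusted p 0.351).

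The regulators of the histidine genes were not called either. GCN4 (YEL009C) was at 0.37 ± 0.16 and was above 0 on all 4 arrays, at 0.17 and 0.26 on the MM in Cy5 arrays and 0.35 and 0.70 on the SC in Cy5 arrays (limma adjusted p 0.091). GCN2 (YDR283C) was at 0.27 ± 0.13 (adjusted p 0.144) and PHO2 (YDL106C) at 0.03 ± 0.20 (adjusted p 0.854). BAS1 (YKR099W) was measured in replicate 1 only. Gcn4 is controlled in translation, which these arrays do not measure. The other genes of the list, PRS2, PRS5, ADE17, GAP1, VBA1 and VBA3, had values on 2 arrays each and were not tested. Among them ADE17 (YMR120C), listed with ADE16 for AICAR use, was at -1.43 (MM in Cy5) and -1.16 (SC in Cy5). These values are from replicate 1 only and inside a run.

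Beside 2 related pathways, the histidine genes had a median close to that of the lysine genes. Of 7 lysine biosynthesis genes 6 were called lower and 0 higher by limma (also 6 and 0 at an unadjusted p of at most 0.05), with a median of -2.55. LYS20 (YDL182W), a homocitrate synthase of the first step, was lowest at -3.45 ± 0.02 (SD, n = 2, limma adjusted p 0.00864), close to HIS4. Of 7 de novo purine genes with values on all arrays, 3 were called lower and 0 higher by limma (also 3 and 0 unadjusted), with a median of -0.48. ADE8 (YDR408C), a formyltransferase of the route, was lowest at -1.254 ± 0.21 (adjusted p 0.0162), and 3 of the 7 lie inside the runs. These 3 were ADE16, ADE2 and ADE13, at 0.12, -0.43 and -0.48 with SDs of 0.56 to 0.76, and ADE13 sets the median. Outside the runs ADE8, ADE1 (-1.15) and ADE57 (-0.80) were called lower, and ADE12 (0.31) was not called. Over all genes tested 17% were called lower and 16.5% higher. The medians stand side by side as descriptions, and the differences between the lists were not tested.

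**Figure D4:**
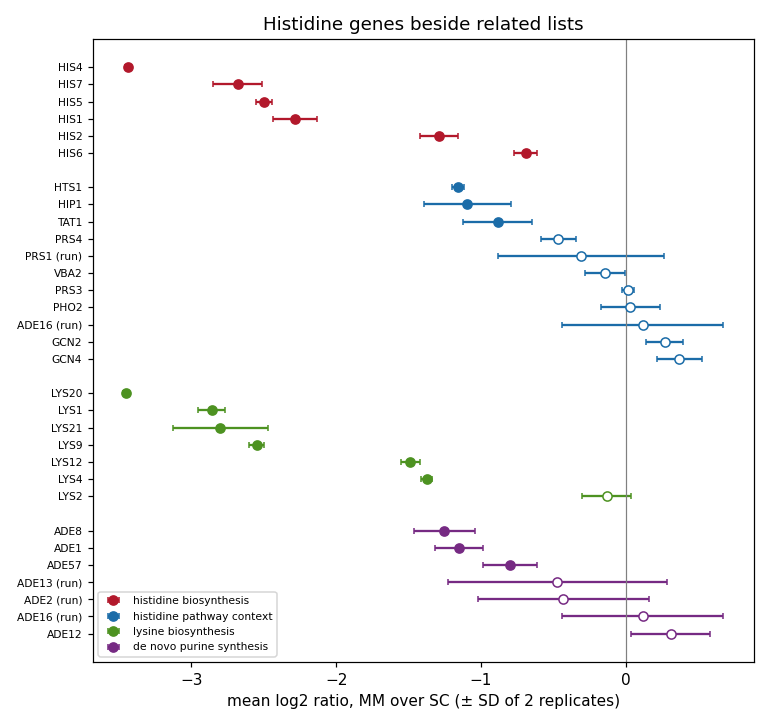
Mean log2 ratio of MM over SC (horizontal axis, ± SD of 2 replicates) of the histidine genes (red), genes around the pathway (blue), lysine genes (green) and de novo purine genes (purple) with values on all 4 arrays. Filled points passed an adjusted p of 0.05 in limma, open points were not, and "run" marks rows inside the runs where replicates do not correlate. Filled points lie only below 0.

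The genes nearest to the group on the arrays were found by the Euclidean distance of the 4 log2 ratios to the per-array median of the 6 genes. The closest were YBL005W-A (distance 0.24), IRC7 (YFR055W, 0.25), TMT1 (YER175C, 0.26), KRS1 (YDR037W, 0.27) and YML045W (0.27), the last inside a run. KRS1, the cytosolic lysyl-tRNA synthetase, was at -2.39 ± 0.05 (SD, n = 2, limma adjusted p 0.00864). For single genes the nearest rows were AGP1 (YCL025C) to HIS4, SAM4 (YPL273W) to HIS7, TRP4 (YDR354W) to HIS5, YJR026W to HIS1, CIA2 (YHR122W) to HIS2 and PDR12 (YPL058C) to HIS6. The distances were 0.13 for PDR12, 0.18 for TRP4, 0.20 for YJR026W, 0.23 for CIA2, 0.26 for SAM4 and 0.47 for AGP1. TRP4 is an enzyme of tryptophan synthesis and AGP1, the farthest of these rows, an amino acid permease. Roles are named only for KRS1, TRP4 and AGP1, and whether the nearest rows share a role was not tested. YBL005W-A, YML045W and YJR026W carry no gene symbol here, and the roles of the other nearest rows are not given. No common role is therefore read from the named ones. With 4 arrays this likeness covers the size of the log2 ratio and little else.

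The decreases were also set against the genes beside each of the 6 on its chromosome, a comparison chosen after the data were seen. The 6 genes lie on chromosomes II, III, V, VI and IX and are not a cluster, with HIS5 and HIS6 both on IX but far from being neighbours. Of 12 flanking genes 10 had values on all 4 arrays, and each of these 10 was less negative than its histidine gene. Most genes of the table would be, since the 6 genes rank between the 4th and the 468th lowest of 3765. The count therefore does not set the flanking genes apart from other genes. The median log2 ratio of the 10 flanking genes was -0.54, with 6 called lower and 1 higher, against 17% and 16.5% of all genes tested. ARO4 (YBR249C), an enzyme of aromatic amino acid synthesis beside HIS7, was the lowest at -1.78 (limma adjusted p 0.00864), and FCY2 (YER056C), a purine and cytosine permease beside HIS1, was at -1.02 (adjusted p 0.0230).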

How the data were processed

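Transcript ratios of yeast in MM and SC were measured on 4 two-colour arrays. The authors took the arrays from a GenePix scanner, corrected spots for background, applied a mean-by-mean normalization to well measured spots and deposited log2 ratios per ORF for each array, with the remaining spots blank. Scale and direction are not stated with the values. Of 5 genes with an oligo-dT ratio in the text of the study, the mean of the deposited values had that sign in 5, and was within 0.02 of the log2 of the ratio in 4 (natural log 1, log10 0). Arrays of opposite orientation correlated at 0.692 to 0.928, so no sign was turned. The arrays held 4122 to 5941 values, with medians of -0.06 to 0.05, and their number limits the precision. Spots were PCR products of ORFs, so strands are not told apart.

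The arrays of both orientations were averaged per replicate number (n = 2), since a dye effect cancels in that mean. Genes measured on every array (3765) went into limma 3.58.1 (lmFit, eBayes; R 4.3.3), where the mean was tested against 0, two-sided, and genes with a Benjamini-Hochberg adjusted p of at most 0.05 are the called ones. The program named in the methods (BAGEL) was not used. The series names 2 biological replicates, the methods name independent reverse transcriptions, and p-values measure only the spread between these. The dye term was fitted in limma on the 4 arrays. The steps were also run on simulated data with independent values and without the runs. This checks that set values are recovered and not how the fits behave on these arrays. Symbols came from the RefSeq table of assembly R64, which matched 5801 of 6301 names (92.1%), and no coordinates are given since no build is named with the values. Named genes are the 6 genes, called and measured genes of each role around the pathway, the largest call in each related list, and the nearest genes. The genes and lists were chosen with earlier results of these data known. Alternatives covered missing values, scaling, moderation, the replicate block, the runs, single arrays and orientations. Promoter sequences were not analysed here.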

Additional observations from a re-analysis of the deposited data

How the results depend on the processing

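All 6 genes stayed below 0 under the 15 alternatives that gave them a log2 ratio, and the median over the 6 genes stayed between -2.41 and -2.37. Each was below 0 on every array, so any mean over arrays had to be. Alternatives that changed only the genes fitted or the variance left the 6 log2 ratios unchanged. HIS4 ranged from -3.75 to -3.13, its values in the 2 dye orientations. Of 90 gene values under alternatives, 83 remained called and 7 were not. Of these 7, 1 was HIS6 without MM in Cy5 replicate 2, and 6 came from the fit with no moderation, where lmFit of limma without eBayes called 0 of the 6 genes and 0 genes in all. At an unadjusted p of at most 0.05 that fit had 877 genes and 5 of the 6, and adjusted p of the 6 lay between 0.182 and 0.214. It has 1 degree of freedom per gene. With 1 array left out, 5 to 6 of the 6 genes were called lower, and the count over all genes went from 570 (without MM in Cy5 replicate 2) to 1026, against 1263. It was 574 on the arrays with SC in Cy5 alone and 1744 with the 4 arrays taken as independent. It was 1979 with the replicate number as a random block and, without the runs, 1920 of 2994 genes. In these 4 fits 6 of 6 histidine genes were called lower. The 17% of genes called lower is the background of the main fit only. The runs were found in these data by poor agreement of replicates, so the fit without them is no independent check. The median SD between replicates was 0.099 outside the runs, against 0.119 over all genes tested. The replicate block changed no call of the 6 genes. The correlation of same-numbered arrays that limma estimated for this block was negative, at -0.24. A negative value narrows the error of the mean, so this fit is not a stricter one. Same-numbered arrays deviated together at r = 0.706 over all genes and 0.044 outside the runs (across genes), so the numbers are not shown to pair the arrays.

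For the dye term, 26 genes were called with the replicate block, 2 without the runs and 0 with any 1 array left out, none of them among the 6. At an unadjusted p of at most 0.05 the fits with 1 array left out had 56 to 311 genes, with 0 to 1 of the 6. On all 4 arrays there were 309, with 1 of the 6. The causes of these changes were not tested. The search for promoter motifs and its alternatives were not run, since no promoter sequences were at hand. The precision of a single gene is limited by 2 replicates and, per replicate, by 1 array in each dye orientation.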
